A study of Mus musculus with 24 samples.

Results

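MiRNAs made from hairpins that lie beside a let-7 gene were followed in the mouse lung after birth: mmu-miR-99a, mmu-miR-99b, mmu-miR-100, mmu-miR-125a-5p, mmu-miR-125a-3p and mmu-miR-125b-5p (the species prefix mmu is left out below). They were taken by name and are 6 of the 650 miRNA names on the array. All 6 were detected on each of the 24 arrays and were among the 322 miRNAs tested. The arrays held total RNA from the whole lung of healthy C57BL/6 mice at day 1, day 4, day 7 and day 14 after birth (5 arrays per age) and at 6 weeks, written here as day 42 (4 arrays). Each array was 1 biological replicate per the labels, and no mouse was treated or carried an engineered allele per the labels.

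MiRNAs are short RNAs that pair through a seed near their 5′ end with messenger RNAs and lower their output. Related miR-99/100 and miR-125 hairpins flank let-7 hairpins in an arrangement kept across many animals, and the hairpins of such a group can be cut from the same long transcript. Let-7 and miR-125 are known for rising as cells leave the embryonic state, and members of the miR-99/100 family are known to target the mTOR kinase. The mouse has 3 such groups, and let-7 ripening can be held back separately from that of its neighbours by the protein Lin28.

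The mature sequences below, from RefSeq (GRCm38.p6), are shown because the seeds (bases 2 to 8, in capitals) put the members into families that cut across the 3 genomic groups, and because near-identical relatives can share array signal.
miR-100: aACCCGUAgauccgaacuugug
miR-99a: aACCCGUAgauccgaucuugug
miR-99b: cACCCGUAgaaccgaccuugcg
miR-125b-5p: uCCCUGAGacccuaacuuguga
miR-125a-5p: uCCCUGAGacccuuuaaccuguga
miR-125a-3p: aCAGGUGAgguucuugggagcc
let-7a: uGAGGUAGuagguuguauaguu
let-7c: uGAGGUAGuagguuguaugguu
let-7e: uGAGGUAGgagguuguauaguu

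The seed ACCCGUA was held by 3 of 1679 mouse mature names in RefSeq, which were miR-99a, miR-99b and miR-100. Counted from 1 at the 5′ end, miR-100 differs from miR-99a by U16A alone, and miR-99b differs from miR-99a by A1C, U11A, U16C and U21C. MiR-125a-5p and miR-125b-5p have the same first 13 bases and share the seed CCCUGAG, held by 5 names. Let-7c differs from let-7a by A19G and let-7e from let-7a by U9G. The seed of miR-125a-3p, cut from the other arm of the miR-125a hairpin, was held by no other name. How much signal a probe takes from a relative that differs by 1 base was not tested.

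In GRCm38.p6 the group on chromosome 9 holds Mir100 (chr9:41531425-41531504), Mirlet7a-2 (chr9:41536716-41536811) and Mir125b-1 (chr9:41581926-41582002), all on the plus strand and within the bounds of the non-coding gene Mir100hg. The group on chromosome 16 holds Mir99a (chr16:77598936-77599000), Mirlet7c-1 (chr16:77599657-77599750) and Mir125b-2 (chr16:77646273-77646343), also on the plus strand. The group on chromosome 17 is compact: Mir99b (chr17:17830188-17830257), Mirlet7e (chr17:17830352-17830444) and Mir125a (chr17:17830812-17830879) fit in 692 bases within the bounds of Spaca6, against 50578 bases on chromosome 9 and 47408 on chromosome 16. MiR-125b-5p is made from both long groups, and let-7a and let-7c also have gene copies elsewhere, so a signal for these names cannot be assigned to 1 locus. MiR-100, miR-99a, miR-99b, let-7e and both arms of miR-125a come from 1 gene each.

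Values are log2 of the background-subtracted signal, summed over a miRNA's probes and scaled so that all arrays shared 1 value of the 75th percentile, taken over the 228 miRNAs that every array detected. Ages were compared with limma over all tested miRNAs with Benjamini-Hochberg adjustment, a call is an adjusted p under 0.05, and an error after ± is the standard error of the model unless SD is named. Because a probe's signal depends on its sequence, levels were compared between ages and not between miRNAs. An array detected 266 to 348 names. Array brightness, the unscaled 75th percentile, averaged 1.09 log2 units higher at day 14 and 1.00 higher at day 42 than at day 1. All 5 epithelial, 2 endothelial, 2 smooth muscle, 3 fibroblast, 4 leukocyte and 3 red blood cell marker miRNAs were detected on every array. The neuronal marker miR-124 was detected on none, the other neuronal marker, miR-9, on 2, and the liver marker miR-122 on 8. In whole tissue, fewer cells of a type and less RNA per cell cannot be told apart.

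Over the 5 ages, 4 of the 6 members differed in the F-test, where 65.5% of all tested miRNAs did. These were miR-100 (adjusted p 2.1e-06, limma), miR-125b-5p (0.000895), miR-99a (0.00616) and miR-125a-5p (0.0379). The call of miR-125a-5p was lost when any 1 of 10 arrays was left out, with an adjusted p of up to 0.0824 (limma). MiR-99b had an adjusted p of 0.0983 and miR-125a-3p of 0.409 (limma). From day 1 to day 42, miR-100, miR-125b-5p and miR-99a rose, while miR-99b and miR-125a-5p fell on the scale used here (not without scaling, as given below), so 5 of 6 were called against a background of 61.8%. A rise was called for 18.9% of all tested miRNAs and a fall for 42.9%. The ages did not overlap for 39.8% of them, as for 3 of the members, and the median change of all of them was -0.35.

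**Figure D1:**
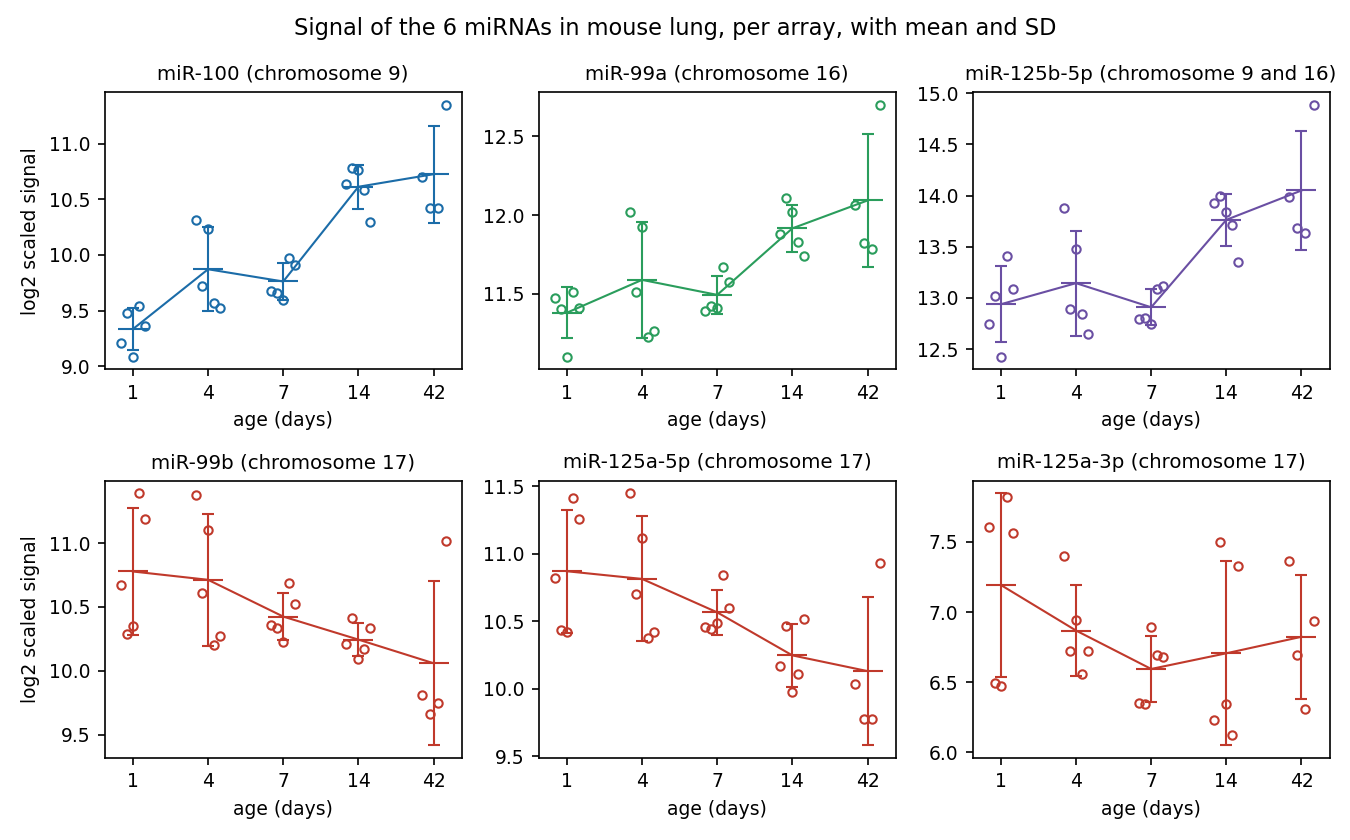
Scaled log2 signal (vertical axes, one scale per panel) of the 6 miRNAs against age in days (evenly spaced), with 1 open circle per array and the mean with SD. MiR-100, miR-99a and miR-125b-5p are higher on every day 42 array than on every day 1 array, whereas the chromosome 17 miRNAs overlap between these ages and spread widely at days 1 and 42.

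MiR-100, from the group on chromosome 9, rose by 1.39 between days 1 and 42 on the scale used here, and by 0.91 under normexp, a model-based background correction, where miR-125b-5p rose by 1.24. Its scaled log2 signal at day 1 was 9.21, 9.48, 9.08, 9.54 and 9.36 in replicates 1 to 5. At day 14 it was 10.64, 10.78, 10.77, 10.59 and 10.30, and at day 42 it was 10.702, 10.43, 10.43 and 11.35. The lowest day 14 or day 42 array lay above the highest day 1 array. The rise was 1.28 ± 0.18 by day 14 (2.43-fold, adjusted p 3.03e-06, limma) and 1.39 ± 0.19 by day 42 (2.63-fold, adjusted p 1.4e-06, limma).

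MiR-99a, the chromosome 16 relative with 1 different base, rose less. At day 1 its signal was 11.47, 11.40, 11.10, 11.51 and 11.41. At day 14 it was 11.88, 12.11, 12.02, 11.83 and 11.74, and at day 42 it was 12.06, 11.82, 11.78 and 12.70. Both later ages lay above day 1 without overlap, as 35.4% of tested miRNAs at day 14 did above or below it. The rise was 0.54 ± 0.17 by day 14 (1.45-fold, adjusted p 0.0114, limma) and 0.71 ± 0.18 by day 42 (1.64-fold, adjusted p 0.0017, limma).

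MiR-125b-5p, the product of both long groups, rose as well. At day 1 its signal was 12.75, 13.02, 12.43, 13.41 and 13.09. At day 14 it was 13.92, 13.996, 13.84, 13.71 and 13.35, and at day 42 it was 13.99, 13.69, 13.64 and 14.89. The lowest day 14 array fell below the highest day 1 array, while every day 42 array lay above day 1. The rise was 0.82 ± 0.24 by day 14 (1.77-fold, adjusted p 0.00695, limma) and 1.11 ± 0.26 by day 42 (2.16-fold, adjusted p 0.000718, limma).

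The step between day 7 and day 14 was the only consecutive step at which any member was called. MiR-100 rose by 0.85 ± 0.18 (adjusted p 0.000746, limma) and miR-125b-5p by 0.85 ± 0.24 (adjusted p 0.00828, limma), so 2 of 6 were called against a background of 31.4%. The change of miR-99a at this step was 0.42 ± 0.17 (adjusted p 0.066, limma), with every day 14 array above every day 7 array, as held for all 3 rising members; 37% of tested miRNAs did not overlap at this step. At day 7 miR-100 ranged from 9.59 to 9.97, miR-99a from 11.39 to 11.67 and miR-125b-5p from 12.75 to 13.12. None of the 6 was called between days 1 and 4, where 1.55% of tested miRNAs were. There, miR-100 was higher by 0.54 ± 0.18 at day 4, with an unadjusted p of 0.00741 and an adjusted p of 0.159 (limma). No member was called between days 4 and 7 (background 0.311%) or between days 14 and 42 (background 32.6%), and no member had an unadjusted p under 0.05 at either step (limma).

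The members on chromosome 17 were lower at the later ages on the scale used here, although without scaling miR-99b was higher at day 14 than at day 1 by 0.56 (adjusted p 0.0022, limma) and miR-125a-5p by 0.47 (adjusted p 0.0028, limma). In that setting 212 of the 322 tested miRNAs were called as rises, and the median change of all of them was larger, at 0.89. MiR-99b, which has the seed of miR-99a and miR-100, had signals of 10.67, 10.28, 10.35, 11.39 and 11.18 at day 1. At day 14 they were 10.21, 10.42, 10.09, 10.17 and 10.33, and at day 42 they were 9.81, 9.66, 9.75 and 11.02. Replicate 4 of day 42 stood within the day 1 range, and the other three lay below it. The fall by day 42 was -0.72 ± 0.28 (1.64-fold, adjusted p 0.0281, limma), and the change by day 14 was -0.53 ± 0.26 (adjusted p 0.0875, limma).

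MiR-125a-5p, which has the seed of miR-125b-5p, had signals of 10.82, 10.44, 10.42, 11.41 and 11.26 at day 1. At day 14 they were 10.17, 10.47, 9.98, 10.11 and 10.52, and at day 42 they were 10.04, 9.78, 9.78 and 10.93. Again only replicate 4 of day 42 reached the day 1 range. The fall was -0.62 ± 0.24 by day 14 (1.54-fold, adjusted p 0.0334, limma) and -0.74 ± 0.26 by day 42 (1.67-fold, adjusted p 0.0155, limma).

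MiR-125a-3p, the opposite arm of that hairpin, scattered widely within each age. It ranged from 6.47 to 7.82 at day 1, from 6.13 to 7.50 at day 14 and from 6.31 to 7.36 at day 42, so that the ages overlapped. Its change was -0.49 ± 0.30 by day 14 (adjusted p 0.165, limma) and -0.37 ± 0.32 by day 42 (adjusted p 0.318, limma). At day 42 the outcome turned with the processing: it was called as a rise without scaling, at 0.64 (adjusted p 0.0264, limma), and in the deposited table, at 0.74 (adjusted p 0.0308, limma), and as a fall under normexp, at -1.27 (adjusted p 0.0291, limma), where all 6 members were called. Under normexp 241 of the 322 tested miRNAs were called at day 42, 39 of them as rises, and the median change was -1.18. The median change of all tested miRNAs was 0.64 without scaling, where 145 of the 322 rose. In that setting miR-125a-3p thus rose no more than the median. For the deposited values that median was 0.31, with 133 of the 322 called as rises. On the scale used here, 4 of 6 members were called at day 14 against a background of 53.7%.

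The falls on chromosome 17 depended on how the arrays were put on a common scale, and the rises did not. The rises of miR-100, miR-99a and miR-125b-5p by day 42 were called in all 15 other ways of processing, with miR-100 between 0.91 and 2.40. The fall of miR-99b was called in 6 of the 15 and that of miR-125a-5p in 8. The 15 are not separate support, since some leave the values of a miRNA as they were. A floor 4 times higher, testing all names, and testing only names that every array detected each left these 2 falls at -0.72 and -0.74. Without any scaling miR-99b changed by 0.29 and miR-125a-5p by 0.27, while the median of all tested miRNAs changed by 0.64. With no scaling, 145 of the 203 called miRNAs rose between days 1 and 42, against 61 of 199 as scaled here. With the 75th percentile taken over all names 125 of 203 rose, the median of all was 0.30, and miR-99b and miR-125a-5p changed by -0.057 and -0.078.

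Array brightness moved with these values. The values had been divided by that same percentile, so lower values on brighter arrays are partly built in. The same holds for the fit with brightness as a covariate. Within an age, miR-99b was lower by 0.85 and miR-125a-5p by 0.82 log2 units per doubling of brightness, miR-125b-5p by 0.69, and miR-99a and miR-100 were each lower by 0.43. With brightness as a covariate miR-99b changed by 0.14 and miR-125a-5p by 0.082 from day 1 to day 42, and miR-100 by 1.82. Replicate 4 of day 42 was the dimmest array of its age, with a 75th percentile of 1727 against 2662 to 4151, and replicates 4 and 5 of day 1 were dim as well, at 923 and 1099. Without replicate 2 or 3 of day 42, neither chromosome 17 fall was called, which left 3 of 6 members called. The fall of miR-99b was also not called without replicate 1 of day 42 or without replicate 4 or 5 of day 1. Within the third slide, whose only day 42 array was replicate 4, miR-99b was higher than at day 1 by 0.25 and miR-125a-5p by 0.094. Within the first slide, whose only day 42 array was replicate 2, they changed by -1.37 and -1.34. Within the second slide they changed by -0.50 and -0.53.

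The let-7 neighbours differed among themselves. Let-7c, beside miR-99a, rose by 0.97 ± 0.20 between days 1 and 42 (adjusted p 0.000213, limma), with signals of 13.86 to 14.37 at day 1 and 14.72 to 15.81 at day 42. Let-7a, beside miR-100, changed by 0.34 ± 0.16 (adjusted p 0.063, limma), from 14.81 to 15.11 at day 1 to 14.99 to 15.84 at day 42. Let-7e, between miR-99b and miR-125a, fell by 0.57 ± 0.18 on the log2 scale (adjusted p 0.0099, limma), although without scaling it was higher by 0.43 (adjusted p 0.0445, limma). Its signals were 12.50 to 12.97 at day 1 and 11.82 to 12.75 at day 42. Of the 9 let-7 family names, which include miR-98, 4 rose and 1 fell by day 42 with a median change of 0.34, on a scale where 18.9% of all tested miRNAs rose and 42.9% fell. These counts moved with the scaling: without scaling all 9 rose, with the 75th percentile over all names 8 rose and none fell, with median scaling 7 rose and none fell, after quantile normalization 4 rose and 2 fell, and 5 rose and 1 fell in the deposited table. In that order, these settings called 145, 125, 96, 121 and 133 of the 322 tested miRNAs as rises. By day 14, 6 rose and none fell, where 21.1% of all tested miRNAs rose and 32.6% fell. Without scaling all 9 rose by day 14 as well, where 212 of all 322 tested miRNAs rose. After quantile normalization 4 of the 9 rose and 1 fell, where 111 of the 322 rose.

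**Figure D2:**
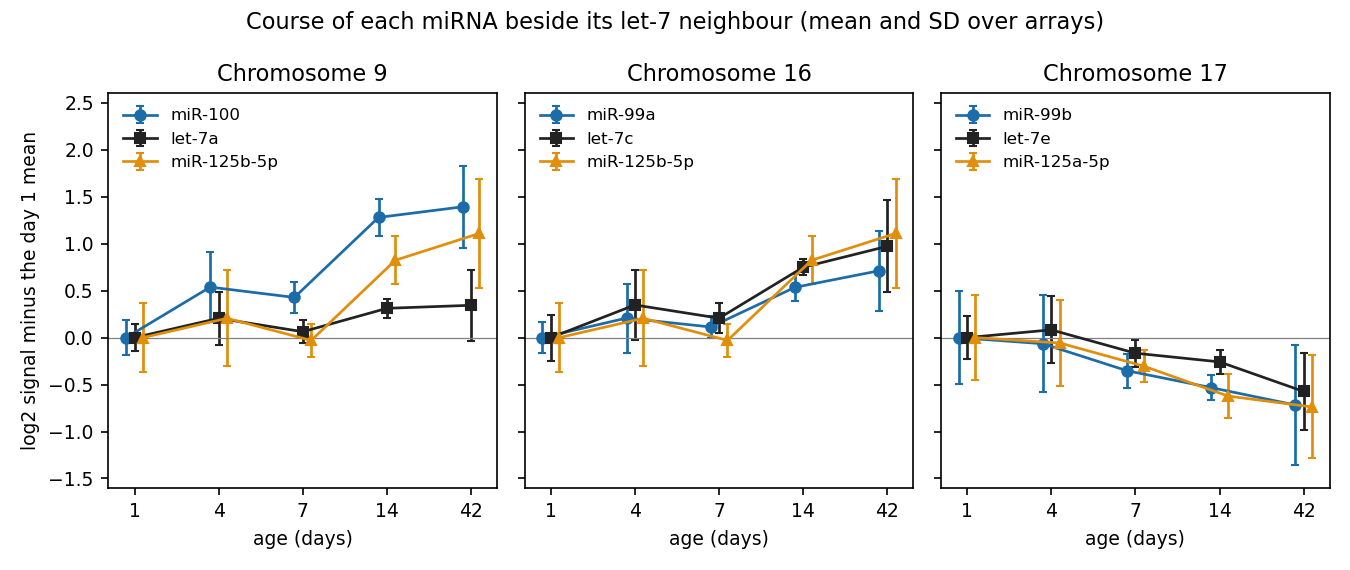
Mean log2 signal minus the day 1 mean (vertical axis, with SD over arrays) against age in days for the miRNAs of each genomic group, with miR-125b-5p drawn in both groups that make it. MiR-100 ends 1.39 above its day 1 mean and let-7a 0.34, miR-99a and let-7c end 0.71 and 0.97 above, and the 3 chromosome 17 miRNAs end below their day 1 means.

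Differences between 2 miRNAs on the same array do not depend on the scaling factor of that array, so 14 such pairs were compared between ages. These 14 pairs were chosen with earlier results of these data known, so their p-values are not those of a blind choice. The level of such a difference also holds the probes' own strengths, and only its change was read. From day 1 to day 42, 8 of the 14 changed by limma and 6 by an exact two-sided permutation test adjusted over the 14. Whether the ages overlapped is given below for single pairs as a description, since its share over all such differences was not counted. From day 1 to day 14, 9 changed by limma and 8 by the exact test. The backgrounds are high, since most tested miRNAs changed against any 1 of them. The difference from let-7a changed for 70.7% of all other tested miRNAs by day 42 and for 60.4% by day 14, that from let-7c for 81.3% and 68.5%, and that from let-7e for 61.1% and 57.3%. The difference from miR-99b changed for 57.3% and 53.3%, that from miR-100 for 87.2% and 84.4%, and that from miR-125b-5p for 78.5% and 65.1%. For miR-125a-5p the shares were 60.4% and 59.5%, and for miR-125a-3p 40.5% and 40.8%.

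**Figure D3:**
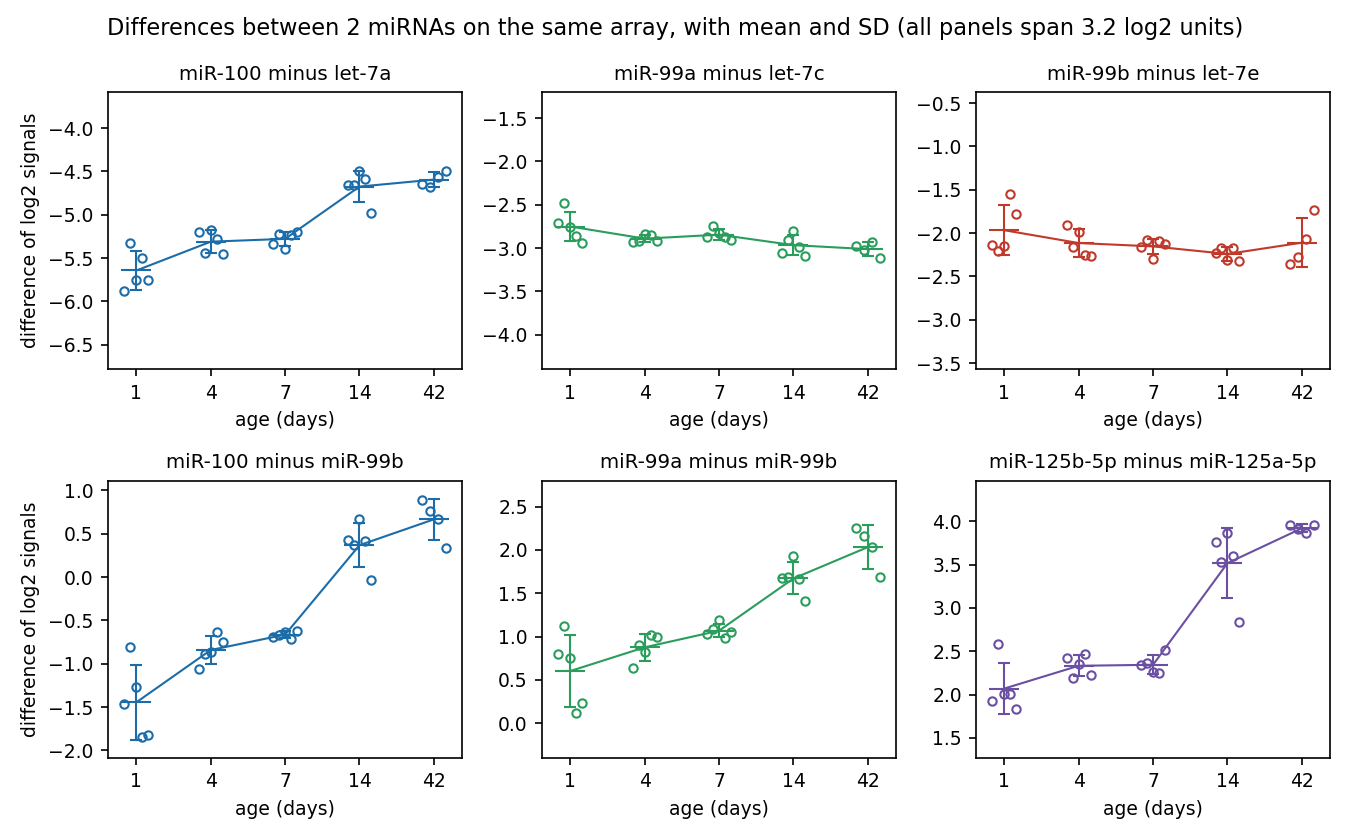
Difference of log2 signals on the same array (vertical axes, each spanning 3.2 units) against age in days for 6 pairs, with 1 open circle per array and the mean with SD. The upper row sets members against their let-7 neighbours and the lower row against their relatives with the same seed on chromosome 17. MiR-100 gains 1.05 on let-7a, and all 3 lower panels climb between days 7 and 14.

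On chromosome 9, miR-100 gained on let-7a. The difference was -5.88, -5.33, -5.75, -5.50 and -5.76 on the day 1 arrays and -4.64, -4.68, -4.57 and -4.49 on the day 42 arrays. The ages did not overlap, and the gain was 1.05 ± 0.11 (2.07-fold, adjusted p 2.13e-08, limma). The exact permutation test gave an adjusted p of 0.037, and its smallest possible unadjusted p in this design is 0.0159. By day 14 the gain was already 0.97 ± 0.10 (adjusted p 5.33e-08, limma). MiR-125b-5p gained 0.77 ± 0.16 on let-7a by day 42 (adjusted p 0.000291, limma). The change between miR-100 and miR-125b-5p was 0.28 ± 0.13 by day 42 (adjusted p 0.0503, limma), and it was called in 5 of 13 alternatives, counting the exact permutation test. By day 14 miR-100 had gained 0.46 ± 0.12 on miR-125b-5p (adjusted p 0.00231, limma), called in 10 of the 13.

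Under normexp the gain of miR-100 on let-7a by day 42 was 0.37 (adjusted p 0.18, limma), and this was the sole alternative of 13, counting the exact permutation test, in which it was not called. Within the 3 slides the gain was 1.01, 0.73 and 1.26.

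On chromosome 16 the members kept closer to let-7c. MiR-99a lost 0.26 ± 0.09 on let-7c by day 42 (adjusted p 0.00946, limma), but the ages overlapped and the exact permutation test gave an adjusted p of 0.0556. It was called in 10 of 13 alternatives, counting that exact test, and not by limma after quantile normalization, at -0.017 (adjusted p 0.9), or in the deposited table, at -0.15 (adjusted p 0.303). The difference was -2.72, -2.48, -2.76, -2.86 and -2.94 at day 1 and -2.98, -3.03, -2.93 and -3.11 at day 42. A change for miR-125b-5p against let-7c was not called, at 0.14 ± 0.13 (adjusted p 0.336, limma). MiR-99a lost 0.40 ± 0.15 on miR-125b-5p (adjusted p 0.0172, limma; exact permutation test 0.0741).

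On chromosome 17 no change within the group was called by day 42. MiR-99b against let-7e changed by -0.14 ± 0.14 (adjusted p 0.381, limma), miR-125a-5p against let-7e by -0.17 ± 0.11 (adjusted p 0.207, limma), and miR-99b against miR-125a-5p by 0.02 ± 0.09 (adjusted p 0.849, limma). The arms of miR-125a changed against each other by -0.37 ± 0.27 (adjusted p 0.292, limma). Over 13 alternatives, counting the exact permutation test, the change between the arms ranged from -1.26 to 0.54 and was called in 2. By day 14 miR-125a-5p had lost 0.36 ± 0.10 on let-7e (adjusted p 0.00523, limma). This change was called in 8 of 13 alternatives, counting the exact permutation test. Among others, it was not called with array brightness as a covariate, at -0.04, or without the 5 dimmest arrays, at -0.17. Those 5 include replicates 1, 4 and 5 of day 1.

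Members with the same seed parted between the groups. MiR-100 minus miR-99b was -1.47, -0.81, -1.27, -1.85 and -1.83 on the day 1 arrays and 0.89, 0.76, 0.67 and 0.34 on the day 42 arrays. The ages did not overlap, and the change was 2.11 ± 0.18 (4.32-fold, adjusted p 2.04e-09, limma). MiR-99a minus miR-99b went from 0.80, 1.12, 0.75, 0.12 and 0.23 to 2.25, 2.16, 2.03 and 1.68. That change was 1.43 ± 0.17 (2.69-fold, adjusted p 3.05e-07, limma).

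For the miR-125 seed, miR-125b-5p minus miR-125a-5p was 1.93, 2.58, 2.00, 2.00 and 1.83 at day 1 and 3.95, 3.91, 3.86 and 3.95 at day 42. The day 42 arrays agreed within 0.095 units and lay far above day 1. The change was 1.85 ± 0.17 (3.603-fold, adjusted p 4.25e-09, limma). Most of it came with the step from day 7, at 2.24 to 2.52, to day 14, at 2.83 to 3.86. In the 13 alternatives that give such differences, counting the exact permutation test, all 3 changes were called. They ranged from 1.64 to 2.22 for miR-100 minus miR-99b, from 0.99 to 1.45 for miR-99a minus miR-99b, and from 1.28 to 1.98 for miR-125b-5p minus miR-125a-5p. Brightness moved with 2 of them: within an age, both miR-99a and miR-100 gained 0.42 on miR-99b per doubling. With brightness as a covariate those changes were 1.01 and 1.68.

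The let-7 neighbours were set against each other too, without a test, as these pairs were added after the values were seen. Let-7c minus let-7e went from 1.36 to 1.42 at day 1 to 2.87 to 3.06 at day 42, a change of 1.55. Let-7a minus let-7e went from 2.10 to 2.33 at day 1 to 3.09 to 3.18 at day 42, a change of 0.92. Within the miR-99/100 family, miR-99a lost 0.68 ± 0.09 on miR-100 by day 42 (adjusted p 3.64e-07, limma). The ages did not overlap, and the difference was 1.93 to 2.27 at day 1 and 1.35 to 1.40 at day 42. Under normexp this change was -0.18 and was not called.

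**Figure D4:**
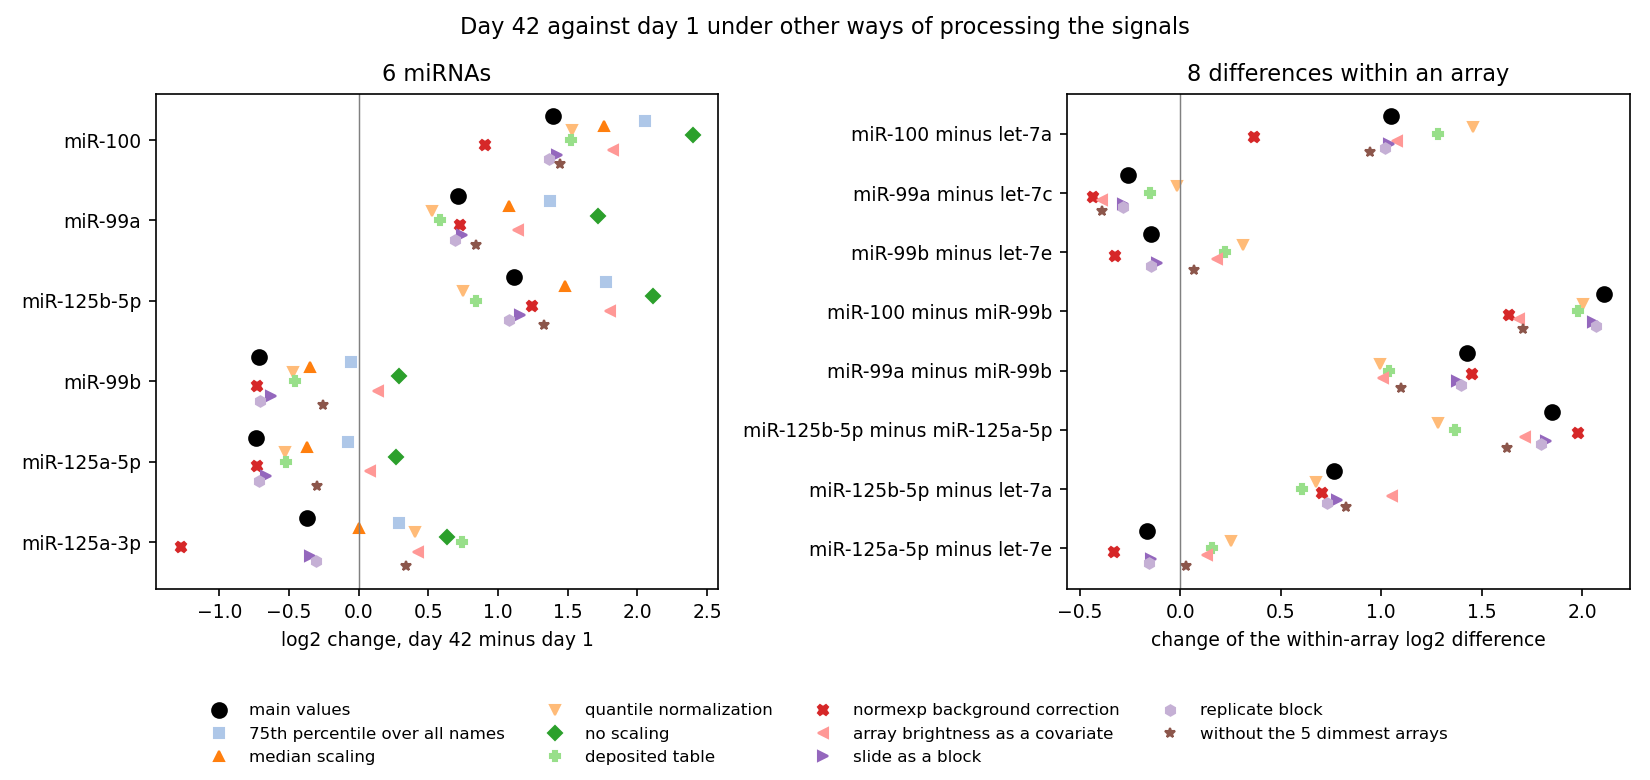
Change from day 1 to day 42 (horizontal axes, log2) of the 6 miRNAs (left) and of 8 differences within an array (right), where each symbol is 1 way of processing the signals. On the left miR-100, miR-99a and miR-125b-5p stay above 0 while the chromosome 17 miRNAs lie on both sides of it. On the right the differences from miR-99b and miR-125a-5p stay at or above 0.99, and those from let-7e scatter around 0.

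For the 5 members with 2 probes, both probes changed in the same direction. Between days 1 and 42 the 2 probes of miR-100 changed by 1.65 and 1.34, those of miR-99a by 0.74 and 0.63, and those of miR-125b-5p by 1.09 and 1.11. Those of miR-99b changed by -0.77 and -0.69, and those of miR-125a-5p by -0.92 and -0.66. The 4 probes of miR-125a-3p ranged from -0.54 to 0.01.

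Of the minor arms of the same hairpins, 5 were on the array and 3 were tested. MiR-99b*, from the other arm of miR-99b, fell by 0.80 ± 0.24 on the log2 scale by day 42 (adjusted p 0.00639, limma), but changed by 0.20 without scaling and 0.23 after quantile normalization. Let-7c-1*, which marks the chromosome 16 let-7 hairpin rather than its copy, fell by 0.99 ± 0.25 (adjusted p 0.00184, limma) while let-7c rose, but changed by 0.019 without scaling and 0.29 after quantile normalization. Its signal was faint, from 4.28 to 5.64 at day 1 and from 3.55 to 4.46 at day 42. Let-7a*, a name that could not be tied to 1 of the let-7a hairpins, changed by -0.71 ± 0.31 (adjusted p 0.054, limma), and by 0.30 without scaling.

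Among relatives outside the groups, 1 fell and 2 rose, also without scaling. MiR-351, which has the miR-125 seed and lies on the X chromosome, fell by 2.68 ± 0.30 on the log2 scale by day 42 (6.39-fold, adjusted p 3.99e-08, limma). MiR-10a, whose sequence resembles that of miR-100 with another seed, rose by 0.88 ± 0.20 (adjusted p 0.000583, limma), and miR-10b by 0.53 ± 0.21 (adjusted p 0.0322, limma).

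Over the 24 arrays the members other than miR-125a-3p fell into 2 sets by correlation of their log2 signals. This is given as a description because arrays share ages and brightness. Pearson's r was 0.94 between miR-99a and miR-100, 0.96 between miR-99a and miR-125b-5p, 0.93 between miR-100 and miR-125b-5p, and 0.98 between miR-99b and miR-125a-5p. For miR-125a-3p it was 0.57 with miR-99b and 0.63 with miR-125a-5p. Between a rising member and a chromosome 17 member it lay between -0.29 and 0.15. Among tested miRNAs outside the 6, let-7c came first for each of the rising members, at 0.968 for miR-99a, 0.940 for miR-100 and 0.944 for miR-125b-5p. The next for miR-99a and for miR-125b-5p was let-7b, at 0.949 and 0.939, followed by miR-30a* at 0.945 and miR-23a at 0.919. The next for miR-100 were miR-22* at 0.929 and miR-30a* at 0.923.

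For miR-99b and miR-125a-5p on chromosome 17, miR-674* came first, at 0.978 and 0.987. Then came miR-342-3p at 0.974 and miR-744 at 0.969 for miR-99b, and miR-28* at 0.971 and miR-342-3p at 0.970 for miR-125a-5p. The nearest to miR-125a-3p were miR-1895 at 0.954, miR-320 at 0.927 and miR-721 at 0.920.

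Marker miRNAs of several cell types moved over the same interval. By day 42 all 3 fibroblast markers had fallen on the scale used here, with a summed level of 13.97 to 14.41 at day 1 and 13.04 to 13.35 at day 42, although without scaling miR-199a-3p changed by 0.23 and 1 of them, miR-214, was called. All 4 leukocyte markers had risen, with sums of 12.01 to 12.90 at day 1 and 13.30 to 13.73 at day 42, but the call of miR-223 was lost after quantile normalization, at 0.13 (adjusted p 0.468, limma), and in the deposited table, at 0.23 (adjusted p 0.194, limma). Both endothelial markers had risen as well, from 15.01 to 15.63 at day 1 to 15.97 to 16.40 at day 42, but the call of miR-126-3p was lost after quantile normalization, at 0.080 (adjusted p 0.492, limma). Among epithelial markers 1 of 5 was called, as a rise, and among smooth muscle and red blood cell markers none was, where 18.9% of all tested miRNAs rose. Without scaling, 4 of 5 epithelial, both smooth muscle and 2 of 3 red blood cell markers were called as rises. In that setting 145 of the 322 tested miRNAs rose. Of the 4 striated muscle markers tested 1 was called, miR-208b, which fell by 2.25 on the log2 scale (adjusted p 0.0105, limma), but was not called without scaling, at -1.28 (adjusted p 0.211, limma), after quantile normalization or in the deposited table. The summed level of the striated muscle list was 8.59 to 15.25 at day 1 and 10.29 to 11.96 at day 42. The part of these shifts in the changes of the 6 members was not tested.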

How the data were processed

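Per the labels, 100 ng total RNA was Cy3-labelled for a 1-colour Agilent array. The deposited array files hold intensity values per spot and a detection flag, from the authors' Agilent Feature Extraction 10.7.1.1 per the file headers. The authors' deposited series table holds log2 values whose making is not given in the sources used here, and it served as an alternative. Processed signals were averaged per probe without outlier spots, summed per miRNA, scaled by the 75th percentile over the 228 miRNAs that every array detected, floored at 7.46 (2.90 in log2) and logged. The number of arrays limits precision. The 322 miRNAs detected on every array of 1 or more ages were tested with limma 3.58.1 (R 4.3.3; 19 residual degrees of freedom, two-sided, Benjamini-Hochberg over the 322), and the 14 differences within an array by the same fit after subtracting 1 miRNA from all others. The script was tested on simulated data. Normexp used median spot signals, since the files used here have no mean column, and not the mean signals planned. Members, pairs and marker lists were chosen with earlier results of these data known. Named besides the members and their let-7 neighbours were the other let-7 names, minor arms of the same hairpins, miR-351, miR-10a, miR-10b, and each member's 3 most correlated tested miRNAs. Of 46 same-numbered pairs of arrays, 18 had a correlation of deviations over 0.1, so the numbers were not taken to pair arrays.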

Additional observations from a re-analysis of the deposited data

Results flagged for a closer look

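Arrays that stood far from the others of their age were searched for in 100 groups of values, counting members and differences within an array; chance alone marks about 1 group in 20, and 6 were marked. MiR-99a read 11.10 in replicate 3 of day 1, where the other arrays of that age read 11.40 to 11.51. MiR-99b read 11.02 in replicate 4 of day 42, where the others read 9.66 to 9.81. In replicate 5 of day 14, miR-125b-5p minus let-7a was -1.92 against -1.46 to -1.37 on the others, and miR-125b-5p minus let-7c was -1.47 against -1.11 to -0.99. In replicate 4 of day 42, miR-125b-5p minus let-7a was -0.96 against -1.42 to -1.36. In replicate 2 of day 1, miR-125b-5p minus miR-125a-5p was 2.58 against 1.83 to 2.00.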

How the results depend on the processing

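Among the members, 3 instead of 5 were called at day 42 against day 1 in several settings. These were median scaling, the 75th percentile over all names, quantile normalization, brightness as a covariate, and the fit without the 5 dimmest arrays. In that order these settings called 187, 203, 214, 204 and 192 of the 322 tested miRNAs, against 199 in the main fit. The 5 dimmest arrays include replicates 1, 4 and 5 of day 1. Normexp called 2 members instead of 4 at day 14 against day 1, where it called 52 of the 322 tested miRNAs instead of 173. It called 1 member instead of 2 at day 14 against day 7, and 4 instead of 9 pairs at day 14 against day 1. At day 4 against day 1, no scaling and the brightness covariate each called 1 instead of 0. With 1 array left out in turn, 3 to 5 members were called over the 5 ages, at day 42 and at day 14, 2 to 3 at day 14 against day 7, and 0 at the other steps; 7 to 9 pairs were called at day 42 and 8 to 10 at day 14. The replicate block called 3 members over the 5 ages instead of 4, and 5 at day 42, 4 at day 14 and 8 and 9 pairs as without it. Where no count of all tested miRNAs stands beside them, these counts are not read as results about the members.

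Signs turned as follows. At day 42 against day 1, miR-125a-3p changed by 0.29 (75th percentile over all names), 0.41 (quantile), 0.64 (no scaling), 0.74 (deposited table), 0.43 (brightness) and 0.34 (without the dimmest arrays). MiR-99b changed by 0.29 (no scaling), 0.14 (brightness) and 0.25 (slide 3), and miR-125a-5p by 0.27, 0.082 and 0.094. At day 14 against day 1, miR-99b, miR-125a-5p and miR-125a-3p changed by 0.56, 0.47 and 0.60 without scaling and by 0.39, 0.27 and 0.37 with brightness, and miR-125a-3p by 0.17 in the deposited table and 0.22 without the dimmest arrays. At day 14 against day 7, miR-99b changed by 0.18 (75th percentile over all names), 0.19 (no scaling) and 0.13 (brightness), miR-125a-5p by 0.045 and 0.051 in the first 2 of these, and miR-125a-3p by -0.087 to 0.26 without 1 array in turn. The cause was not tested.

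Among pairs at day 42, miR-99b minus let-7e changed by 0.31 (quantile), 0.22 (deposited table), 0.18 (brightness) and 0.069 (without the dimmest arrays), miR-125a-5p minus let-7e by 0.25, 0.16, 0.13 and 0.029, and miR-99b minus miR-125a-5p by -0.030 to 0.073 without 1 array in turn. Under normexp, miR-100 minus miR-125b-5p changed by -0.34 at day 42 and -0.060 at day 14, and miR-125a-5p minus miR-125a-3p by 0.54 and 0.16. At day 14, miR-99b minus let-7e changed by 0.082 (brightness), miR-99a minus let-7c by 0.051 (quantile), and miR-125a-5p minus miR-125a-3p by -0.25 to 0.0081 without 1 array in turn. Within-slide values, single probes and let-7 pairs were added after seeing the data.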
